A study of Caenorhabditis elegans with 4 samples.

Results

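The regions described here are the SMC-4 peaks on the X chromosome of Caenorhabditis elegans, taken as all X entries of the peak list deposited for the whole series. They number 480 of the 1997 peaks in that list, 1989 of which lie on the 6 nuclear chromosomes. Chromatin immunoprecipitation followed by sequencing (ChIP-seq) recovers DNA crosslinked to a protein and maps it to the genome. It was done on wild-type N2 mixed-stage embryos, collected by bleaching gravid adults, from a mixed population of males and hermaphrodites kept at 20 °C. The embryos were fixed in 2% formaldehyde for 30 minutes. SMC-4 was precipitated in 2 samples with a polyclonal rabbit antibody purified by affinity, and 2 input samples were taken beside them. The labels do not state that the replicates were grown as separate cultures, and their differences may be technical.

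SMC-4 is an ATPase of the structural maintenance of chromosomes family. It pairs with MIX-1 at the core of condensin I and condensin II, the ring complexes that fold and compact chromosomes. The worm X is also bound by another condensin, that of dosage compensation, in which DPY-27 takes the place of SMC-4. That complex is loaded at discrete recruitment sites on X, spreads from them, and lowers X transcription in hermaphrodites. A peak of SMC-4 antibody signal is therefore no direct measure of the dosage compensation condensin.

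The whole-series list is one call for the series, and how the replicates entered it is not stated, so it cannot be treated as independent of the replicate lists. On X, replicate 1 listed 296 peaks and replicate 2 listed 79. Each peak carries 1 score, the authors' peak caller's own value on a scale that is not stated. Scores on X ran from 1.37 to 134.49 in the whole-series list, from 50.03 to 3100 in replicate 1 and from 51.08 to 2159.15 in replicate 2. In replicate 1 the highest score was exactly 3100 on I, II and V too, so it may be a ceiling. The lowest score of each chromosome lay between 50.01 and 51.65 in the replicate lists, so these may be cut near 50. Read depth is unknown, since no read counts accompany the peaks, and intervals below cover counting error of peaks only. Positions are 1-based coordinates of WormBase build WS220. The gene annotation at hand is of another assembly, so no peak was assigned to a gene, exon or intron.

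Strong SMC-4 signal on X was concentrated in a small set of sites. Ranked by whole-series score, the first X peak stood at 134.49, the 10th at 92.90 and the 17th at 59.10. The 18th dropped to 44.41, the 40th to 23.11 and the 200th to 8.26. The step between 59.10 and 44.41 was used to set 17 X peaks apart, and a score of 50 was taken as the dividing line after the scores were seen. A step nearly as large lay between ranks 6 and 7 on X, at 117.71 and 104.45. Of all nuclear peaks, 24 (1.21%) reached 50. X held 17 of them, 4 were on III, 1 each on I, II and IV, and none on V. The lead depends on where the line is set: at a score of 40 or more X held 19 peaks and the autosomes 9, and at 30 or more X held 24 and the autosomes 25.

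Each of the 17 sites was overlapped by a peak in both immunoprecipitates, and most of these peaks ranked high in their own list. Their overlapping peaks scored 621.12 to 1956.89 in replicate 1, with a median of 1305.47, and 137.55 to 1155.89 in replicate 2, with a median of 779. Replicate 1 had the higher score at 17 of 17. Of the 17, 15 were among the 20 highest X peaks of replicate 1 and 14 among the 20 highest of replicate 2, and the same 14 were in both. Between the replicate lists themselves, 19 of the 20 highest X peaks of replicate 1 overlapped one of the 20 highest of replicate 2.

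The leading site, 806296 to 806878, scored 1305.47 in replicate 1 and 997.67 in replicate 2. The next, 14525399 to 14526269, scored 1582.25 and 1139.35 in replicates 1 and 2. The site at 11093708 to 11094593 scored 1703.88 in replicate 1 and 1071.12 in replicate 2. These 3 ranked 12, 7 and 5 on X in replicate 1 and 7, 4 and 5 in replicate 2, and within the whole-series list they scored 134.49, 134.46 and 127.66. The site with the highest score of the 17 in either replicate was 13700470 to 13701077, with 1956.89 in replicate 1, 1155.89 in replicate 2 and 120.70 for the whole series. The site at 6296065 to 6296847 scored 1897.79 in replicate 1 and 751.06 in replicate 2. The weakest of the 17, 1909368 to 1909728, scored 621.12 in replicate 1 but 137.55 in replicate 2, with 59.10 for the whole series. Another site with a low replicate 2 score was 17544252 to 17544644, at 269.64, beside 806.20 in replicate 1. On X these 2 sites ranked 25 and 20 in replicate 1 and 36 and 27 in replicate 2.

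The sites were wider than most X peaks, though none exceeded 1056 bp. Widths ran from 361 to 1056 bp in the whole-series list, with a median of 728 bp, against a median of 230 bp for the 463 X peaks scoring under 50. The median was 715 bp for the overlapping replicate 1 peaks and 667 bp for those of replicate 2. The midpoints coincided closely across lists: the median offset from the whole-series midpoint was 38 bp in replicate 1 and 40.5 bp in replicate 2, and the largest offsets were 138 bp and 183.5 bp. Together the 17 sites covered 12.1 kb, or 7.94% of the 153 kb under X peaks. Peaks scoring 50 or more had a median width of 728 bp on X (17 peaks), against 315 bp on the autosomes (7 peaks). Score and width were correlated over all X peaks (below).

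**Figure D1:**
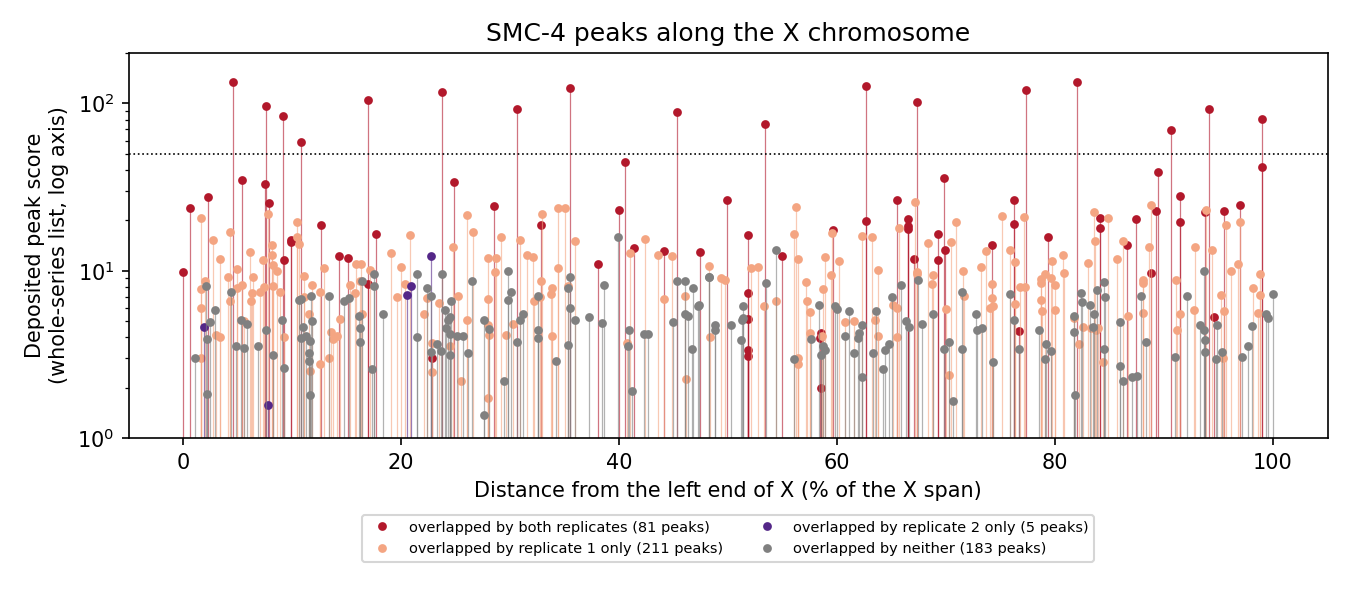
Each point is 1 of the 480 X peaks, placed by its distance from the left end of X in percent of the span and by its whole-series score on a log axis, with the colour giving the replicate lists that overlap it and the dotted line marking a score of 50. The 17 peaks above the line are spread over nearly the whole chromosome, and all are overlapped by both replicates.

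The strong sites were spaced widely and fairly evenly. The 17 stood from 0.807 to 17.5 Mb, with 7 in the left, 4 in the middle and 6 in the right of 3 equal sections of the span. The 16 distances between neighbouring starts averaged 1046 ± 485 kb (SD) and ran from 282 kb, between the sites that start at 1344713 and 1626933, to 1763 kb, between those that start at 11937067 and 13700470. The closest sites were the 4 at the left end, starting at 806296, 1344713, 1626933 and 1909368. From 1909368 to the last site every distance was at least 625 kb. Counted in 1 Mb windows from the left end, 13 of the 18 windows, the last of them partial, held a site of 50 or more.

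To compare chromosomes, the 20 highest-scoring peaks were taken on each. On X the median distance between neighbouring starts was 863 kb, against 301 to 713 kb on the 5 autosomes. The coefficient of variation of these distances, the SD divided by the mean, was 0.549 on X, against 0.856 on III, 1.11 on V, 1.16 on I and IV, and 1.41 on II. A lower value means more even spacing. In the replicate lists the coefficient was 0.455 on X in replicate 1, against 1.09 to 1.26 on the autosomes, and 0.487 on X in replicate 2, against 0.879 to 1.67. The closest pair among the 20 on X stood 249 kb apart in each replicate list, against 0.487 to 86.2 kb on the autosomes over both lists. In the whole-series list the closest pair stood 1.202 kb apart on X, against 96.9 kb on III and 0.949 to 1.829 kb on the other autosomes, so closest pairs did not set X apart there. With peaks within 5 kb merged first, an alternative chosen with the data in view, the coefficient was 0.470 on X, against 0.856 to 1.15 on the autosomes.

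X thus had the most even spacing of its leading peaks of the 6 chromosomes in all 3 lists. With 1 X and 5 autosomes, an exact permutation over chromosomes could not give a one-sided p below 0.167, so a difference of X from the autosomes cannot pass a test at this number of chromosomes, and none was run. The evenness depended on how many of the highest peaks were taken, and was clearest at the number used above. It was less marked with the 10 highest peaks (0.847 on X, against 0.918 to 1.11 on the autosomes) and with the 40 highest (0.818, against 0.953 to 1.49). It was lost with the 80 highest (1.01 on X, against 1.007 to 1.57).

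**Figure D2:**
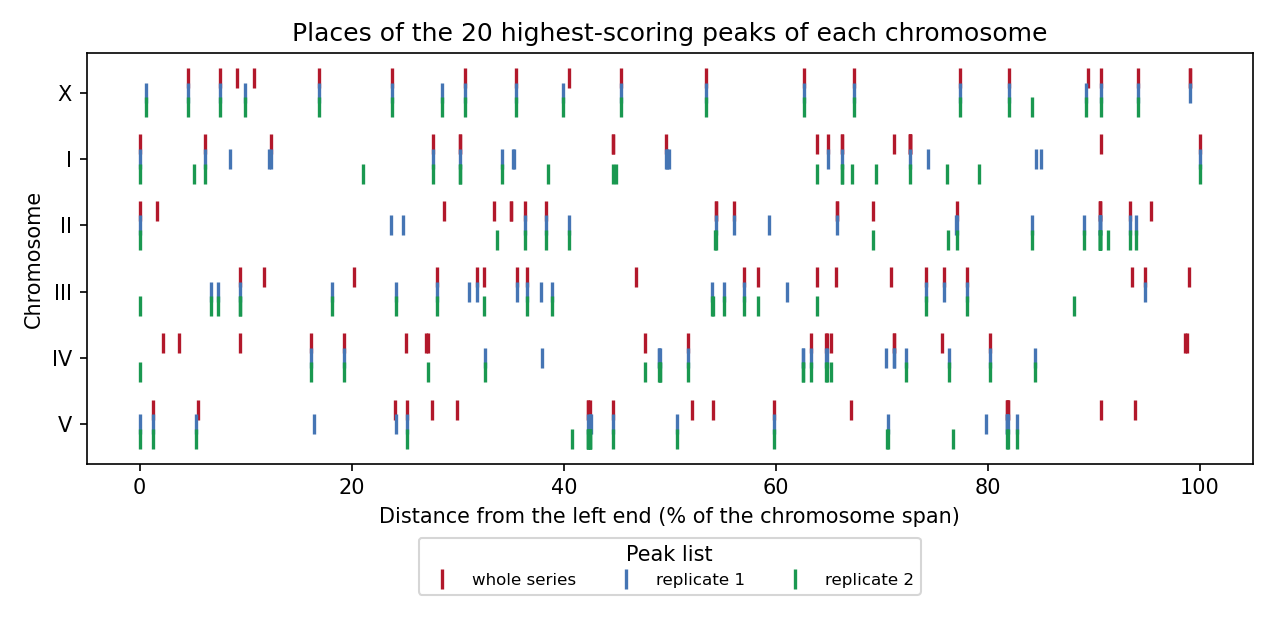
Each tick is 1 of the 20 highest-scoring peaks of a chromosome, placed in percent of that chromosome's span, with X in the top row, the autosomes below it, and a colour for each peak list. Ticks of the 3 lists mostly coincide on X and are evenly spread, with a coefficient of variation of 0.455 to 0.549, while on the autosomes many ticks fall in close pairs.

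Strong sites stood in neighbourhoods about as dense as those of weaker peaks. Within 50 kb on either side, the 17 sites had a median of 2 other X peaks (range 0 to 7), and the 463 weaker peaks had a median of 3 (range 0 to 9). The nearest peak lay at a median of 6.16 kb from a strong site and 7.99 kb from a weaker peak. No other X peak lay within 5 kb of 11 of the 17, and the same held for 291 of the 463 weaker peaks (62.9%). The most isolated strong site was 16056099 to 16056826, whose nearest neighbour was 74.3 kb away. At the other extreme, 6296065 to 6296847, which scored 122.90, had a neighbour 107 bp away. The site at 17544252 was followed after 809 bp by a peak at 17545454 to 17545797 that scored 41.46, the second peak of a pair near the right end of the chromosome.

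Windows without a strong site have leaders under 50 by definition, and these ran from 16.53 to 44.41. The leading peak was 7181518 to 7181939 in window 8, with a score of 44.41, and it scored 376.43 in replicate 1 and 235.19 in replicate 2. In window 16 it was 15841022 to 15841325 (39.08), and in window 13 it was 12362747 to 12363527 (36.03). In window 11 the leader, 10568309 to 10568988, scored 17.45, and in window 4 the leader, 3127555 to 3127995, scored 16.53. The leading peak of every one of the 18 windows was overlapped by both replicates.

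The lead of X in score went beyond the 17 sites, and it was smaller by share of the list than rank for rank. The 20th X peak scored 39.08, against 19.03 to 23.78 for the 20th peak of each autosome. The 40th scored 23.11, against 14.07 to 17.17, and the 100th 13.69, against 7.13 to 9.18. At each of these ranks X was the highest of the 6 chromosomes. X also had the most peaks, so a given rank is a smaller share of its list. The share of peaks scoring 20 to 50 was 7.71% on X and 7.02% on the autosomes, while that of peaks scoring 50 or more was 3.54% on X and 0.464% on the autosomes. By quantile of each chromosome's list X was still the highest of the 6, by less. Its upper quartile was 12.02, against 9.57 to 10.82 on the autosomes, and its 95th percentile 28.18, against 20.34 to 24.89.

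**Figure D3:**
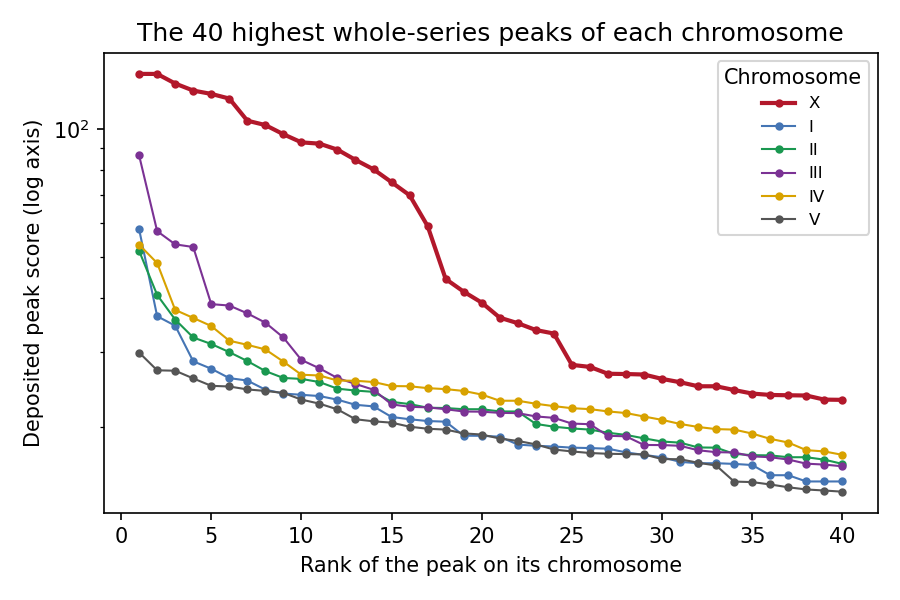
The whole-series score (log axis) of the 40 highest peaks of each chromosome is plotted against the rank of the peak on that chromosome, with 1 line per chromosome. X runs above every autosome throughout, and its line steps down after rank 17, from 59.10 to 44.41. Larger steps on this axis follow the first peak of I (58.09 to 36.31) and of III (86.55 to 57.50).

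Most X peaks were weaker and were not found in both replicates. Of the 480, 81 (16.9%, Clopper-Pearson 95% interval 13.6 to 20.5) were overlapped by at least 1 bp by a peak of each replicate, against 15.3% of all nuclear peaks. Replicate 1 alone overlapped 211 (43.96%, 39.5 to 48.5), replicate 2 alone 5 (1.04%, 0.339 to 2.41), and neither 183 (38.1%, 33.8 to 42.6). Over all nuclear peaks, replicate 1 overlapped 57.4%, replicate 2 16.3% and neither 41.6%. The share of X peaks in both replicates was thus near that of the whole list. Among the autosomes it ran from 8.59% on I to 21.8% on V, so X lay inside the range of the other chromosomes.

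Support followed the score. The median whole-series score was 19.84 for X peaks in both replicates, 8.34 for those in replicate 1 alone and 4.73 for those in neither. The widths followed the same order, with medians of 470, 257 and 178 bp. Only 7 of the 150 X peaks scoring under 5 were in both replicates (4.67%, 1.90 to 9.38), and 101 (67.3%) were in neither. Between 20 and 50, 23 of 37 were in both (62.2%, 44.8 to 77.5) and every one of the 37 was in replicate 1. At 50 and over, 17 of 17 X peaks were in both, and 6 of the 7 autosomal ones.

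X peaks and autosomal peaks were also compared at a matched score, by the share found in both replicates. The shares were 4.67% on X and 4.06% on the autosomes (2.56 to 6.08) under a score of 5, and 28.6% on X (19.9 to 38.6) and 26.1% on the autosomes (21.1 to 31.6) between 10 and 20. They were 3.37% on X (1.25 to 7.19) and 7.58% on the autosomes (5.54 to 10.1) between 5 and 10, and 62.2% on X and 73.6% on the autosomes (64.1 to 81.7) between 20 and 50. The intervals overlapped in every bin. They do not show that the rates are equal, and no test was run, since the whole-series list is not independent of the replicate lists.

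The strongest X peak found in neither replicate was 7068390 to 7068608, with a score of 15.90. It was followed by 9637684 to 9637902 with 13.38, and by 5275227 to 5275481 and 16590775 to 16590969 with 10.02 each. The fifth was 3099875 to 3100058 at 9.57, a score shared with 3803386 to 3803566. These 6 were narrow, at 181 to 255 bp. Of the 5 X peaks that only replicate 2 overlapped, the strongest was 4026124 to 4026443, with 12.18 in the whole-series list and 106.04 in replicate 2. All 5 lay in the left section of the span.

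Where both replicates had a peak, their scores ran in parallel. The 81 X peaks fell on 71 distinct pairs of replicate peaks. Over these pairs Spearman's rho between the scores was 0.825 and Pearson's r 0.951, given as a description of peaks that share 2 libraries and are not replicates. Without the 17 strong sites rho was 0.628 over 54 pairs. Replicate 1 scored higher in 65 of the 71 pairs, by a median ratio of 1.90. Seen from the replicate lists, 72 of the 79 X peaks of replicate 2 met one of replicate 1 (91.1%, 82.6 to 96.4), while 71 of the 296 of replicate 1 met one of replicate 2 (23.99%, 19.2 to 29.3).

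A small class of wide regions, seen on X and on autosomes, ranked high in the replicates and only moderately in the whole-series list. The first on X, 109585 to 114268, was the widest X peak of the whole-series list at 4684 bp. It had the top X score of both replicates, 3100 in replicate 1, which may be a ceiling, and 2159.15 in replicate 2. In the whole-series list it scored 23.69 and ranked 37 on X. The second, 15807514 to 15811150 (3637 bp), ranked 2 on X in both replicates, with 2304.85 in replicate 1 and 1214.79 in replicate 2. Its whole-series score was 22.85, rank 41 on X. Another, 7077431 to 7079174 (1744 bp), scored 1462.25 in replicate 1 and 525.89 in replicate 2. Its whole-series score was 23.11, rank 40 on X. These 3 regions stood above most of the 17 strong sites in replicate 1, and the whole-series list put them below all 17. Autosomes held such regions too. On III, a peak of 3760 bp scored 20.97 in the whole-series list (rank 24 on III), 2598.98 in replicate 1 and 1042.74 in replicate 2. On II, a peak of 2646 bp scored 24.55 (rank 12 on II), with 3100 in replicate 1 and 1669.46 in replicate 2.

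The other wide peaks were weaker. The peak at 291973 to 295274 (3302 bp, 20.52) was overlapped by replicate 1 alone, where it scored 131.77. The peak at 11786278 to 11787828 (1551 bp, 20.44) scored 637.29 in replicate 1 and 256 in replicate 2. Replicate 1 listed 12 X peaks of at least 2 kb, which held 29.3% of its X base pairs, and replicate 2 listed 6, which held 35.6%. Peaks this wide were 12 of 296 on X and 30 of 878 on the autosomes in replicate 1. In replicate 2 they were 6 of 79 on X and 28 of 217 on the autosomes. The best whole-series score under the wide X peaks was 3.00 to 23.69 for replicate 1 and 4.23 to 23.69 for replicate 2, so none held a strong site. A median of 2 whole-series peaks lay under each in both lists, with a maximum of 5.

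Several low-scoring X peaks counted as found in both replicates lie inside such wide calls. Of the 81, 13 scored under 10, and 9 of these 13 were overlapped by a replicate 1 peak of at least 2 kb. Over all 81, a replicate 1 peak that wide overlapped 19. Support by a wide peak is easier to obtain, and with an overlap of 50% of both peaks required, 57 X peaks (11.9%) remained in both.

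**Figure D4:**
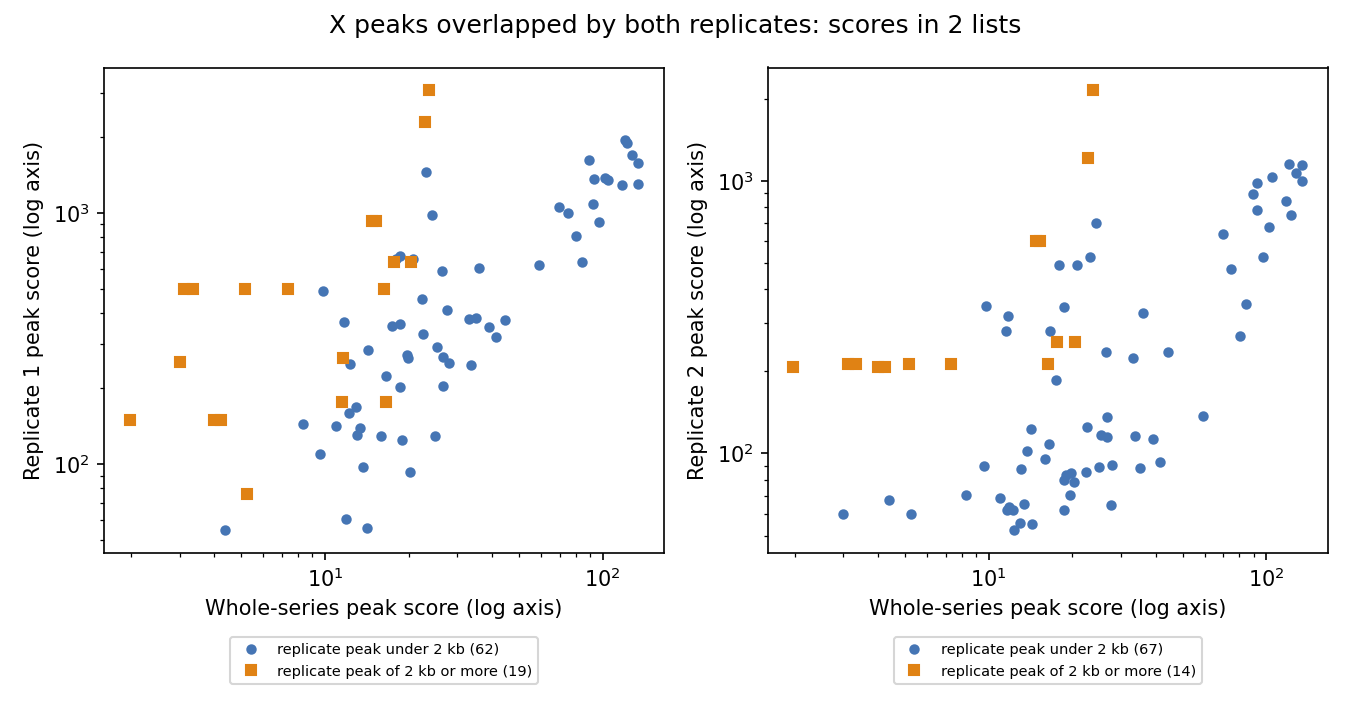
For the 81 X peaks overlapped by both replicates, the score of the overlapping peak in replicate 1 (left) and replicate 2 (right) is plotted against the whole-series score, on log axes, with squares where the replicate peak is at least 2 kb wide. The 17 strong sites form the group at the right of each panel, while squares reach the top replicate scores at whole-series scores of no more than 23.69.

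Most X peaks were narrow. Whole-series widths on X had quartiles of 178 and 322 bp around a median of 236.5 bp. The narrowest was 146 bp, which was also the narrowest on every autosome, 53 of the 480 (11.04%) were under 160 bp, and 12 were at least 1000 bp. Wider peaks scored higher: Spearman's rho between score and width was 0.588 over the 480 X peaks, 0.736 over the 296 of replicate 1 and 0.712 over the 79 of replicate 2. On the autosomes it ran from 0.442 to 0.523 in the whole-series list, where X was highest, from 0.620 to 0.763 in replicate 1 and from 0.537 to 0.827 in replicate 2, where X lay inside the range. Leaving out X peaks of at least 2 kb gave 0.581, 0.736 and 0.689 in the 3 lists.

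X peaks were laid densely over the whole chromosome. There were 27.1 whole-series peaks per Mb on X, against 13.6 on V to 22.9 on III. X had the highest density of the 6 chromosomes in this list, in replicate 1 (16.7 per Mb, against 7.12 to 13.6 on the autosomes) and in replicate 2 (4.46 per Mb, against 2.12 to 3.01). X peaks covered 0.863% of the X span, against 0.474% to 0.696% on the autosomes. Whether X differs from the autosomes could again not be tested over 6 chromosomes.

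Among the 17 full 1 Mb windows of X the count averaged 27.3 ± 7.26 peaks (SD). The fullest was window 2 with 40, followed by window 5 with 38, window 15 with 36 and window 3 with 34. The emptiest were window 7 with 16, window 8 with 17 and window 4 with 19. The partial window 18 held 16. All but 2 of the full windows exceeded 17, the median of the autosomal windows. Replicate 1 had 7 to 27 X peaks per window and was also fullest in window 2 (27) and emptiest in window 7 (7). Replicate 2 had 2 to 8, with 8 in windows 2 and 17. Over these windows, rho between the counts of the replicates was 0.547, as a description.

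The number of peaks in a window did not by itself mark strong sites. Window 2, the fullest, held 3 of them, while window 7, the emptiest, held the site at 6296065 with 122.90. Window 5, with 38 peaks, held 1 strong site and had the lowest median score, 4.90. Window 8 had the highest median score, 12.25, with 17 peaks and no score of 50 or more. X peaks in both replicates numbered 2 to 8 per full window, with a median of 4.

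**Figure D5:**
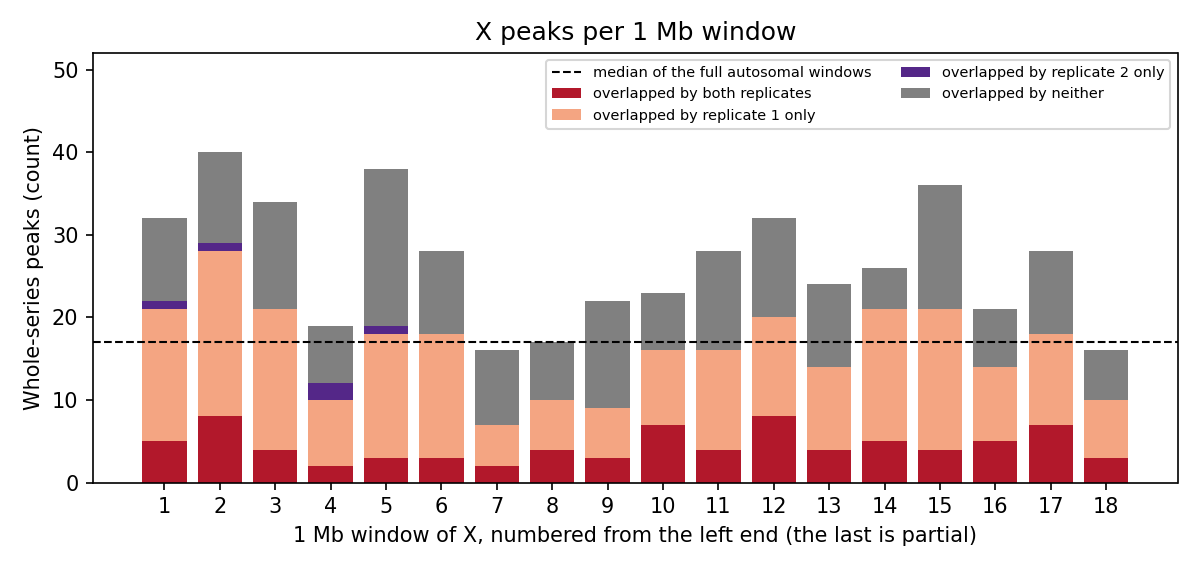
Bars give the number of whole-series peaks in each 1 Mb window of X, numbered from the left end, divided by the replicate lists that overlap them, and the dashed line is the median of full autosomal windows (17 peaks). Counts run from 16 in window 7 to 40 in window 2, and only windows 7 and 8 of the full windows do not exceed the line.

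With the span cut into 3 equal sections, 188 X peaks lay in the left, 135 in the middle and 157 in the right. Among whole-series peaks grouped by support, the dip was clearest in those overlapped by replicate 1 only. Of these, 88 were in the left, 50 in the middle and 73 in the right section. The 81 peaks in both replicates had 25, 26 and 30 in the left, middle and right sections, and those in neither had 70, 59 and 54. Of the 26, the 5 at 9185093 to 9188682 lay under 1 peak in each replicate, as did the 3 at 10361055 to 10363342. The middle section held 28.1% of X peaks (24.1 to 32.4), against 29.8% on II to 40.3% on IV. X was the lowest of the 6 chromosomes here and in both replicate lists, where it held 23.99% in replicate 1, against 30.5% to 40.2%, and 25.3% in replicate 2, against 26.09% to 48.1%. The interval for replicate 2 on X was 16.2 to 36.4.

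Spacing over all X peaks was short and uneven, though the least uneven of the 6 chromosomes. The coefficient of variation of the gaps was 1.13 on X, against 1.17 on I to 1.33 on II. The 479 gaps between neighbouring X peaks ran from 47 bp to 227 kb, with quartiles of 6.21 and 55.02 kb and a median of 22.4 kb. The autosomal medians ran from 24.1 kb on III to 38.6 kb on V. Long gaps were few on X: 42 (8.77%) exceeded 100 kb, against 12.1% on III to 25% on V, and the longest X gap was shorter than the longest on any autosome, which ran from 352 to 629 kb. Fewer peaks widen gaps by construction, and X had the highest peak density, so these lengths are not a trait apart from density. The 3 longest X gaps lay at 6841062 to 7068389 (227 kb), 13701078 to 13917423 (216 kb) and 6378610 to 6593456 (215 kb). The first was free of replicate peaks too. The second, which begins at the end of the strong site at 13700470, held 2 replicate 1 peaks and 1 replicate 2 peak, and the third held 1 replicate 1 peak.

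Gaps of at most 5 kb made up a slightly smaller share on X than on any autosome, but gaps of at most 1 kb did not. At 1 kb the share was 10.2% on X, against 7.69% on I to 14.8% on V. A gap of at most 5 kb made up 21.5% of X gaps, against 22.1% on II to 26.1% on V, and 178 X peaks (37.1%, 32.7 to 41.6) had a neighbour that close, against 34.9% on II to 40.7% on V. In the replicate lists X had the lowest share of the 6 chromosomes, with 22.3% in replicate 1, against 25.7% to 37.3% on the autosomes, and 15.2% in replicate 2, against 18.2% to 40.4%. Chained at 5 kb, the X peaks formed 302 single peaks, 53 pairs, 17 groups of 3, 4 groups of 4 and 1 group of 5. The group of 5, at 9185093 to 9188682, lay under 1 peak in each replicate, which scored 497.33 in replicate 1 and 212.06 in replicate 2, and its own peaks scored 3.11 to 16.31. It is thus 1 region in the replicate calls.

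The groups of 4 differed in support. At 290099 to 295274 and at 4960362 to 4962568, replicate 1 overlapped all 4 peaks and replicate 2 none, with scores of 3.03 to 20.52 and 1.74 to 11.84. At 4336480 to 4339114 replicate 1 overlapped 1 of 4 peaks, which scored 3.12 to 5.27. At 13510413 to 13519296 both replicates overlapped 2 of 4 peaks, one of them at 26.57.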

How the data were processed

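SMC-4 ChIP-seq peaks were analysed from 3 deposited lists, 1 for each of 2 immunoprecipitates and 1 for the whole series. The 2 input samples were not analysed here. BWA is the aligner and ce10 the build named per the submitters' processing notes. Coordinates are those of WormBase WS220, per the file headers. MACS (replicates) and MACS v2 (whole series) are named in the files' source columns. Versions, control and cutoffs are not stated. The deposited score of each peak is the authors' peak caller's value and was compared within a list, except between replicates, since both name 1 caller.

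Counts, widths, gaps and overlaps were computed with pandas 2.3.3, numpy 2.4.6 and scipy 1.17.1 under Python 3.11.15, with figures by matplotlib 3.10.9. Functions were checked on simulated peaks. A chromosome's span ends where its last peak does in any list (X, 17718737). Peaks were shared if they overlapped by at least 1 bp. A gap is the number of bases between 2 peaks. Windows and sections go by peak midpoint. Shares carry 95% Clopper-Pearson intervals. No test was run across peaks. X was set beside each autosome.

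Positions were named by rule: the 20 highest whole-series X peaks, the leader of each 1 Mb window, the 5 widest, the 5 highest in neither replicate, the 5 highest of each replicate, the 3 fullest groups (4 tied for second place) and the 3 longest gaps. Positions outside the rule were chosen after their values were seen. The members and rules were chosen with earlier results of these data known. Alternatives covered the overlap rule, a stricter score, merging, the list used, distances, sections, windows and the number of leading peaks. No genome of this build was used, so no sequence is shown, and the planned motif count and antigen match were not run.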

Additional observations from a re-analysis of the deposited data

How the results depend on the processing

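The density of X over that of the autosomes was 1.48 and stayed above 1 in every alternative run. It was 1.71 with the stronger 50% of peaks, 1.68 with peaks in both replicates, 1.65 by medians of 1 Mb windows (added after the data were seen), and 1.57 to 1.70 in the single replicate lists. The share of X peaks in both replicates was 11.9% with reciprocal overlap of 50% and 26.97% for the stronger 50%. Replicate 2 overlapped 17.9% and replicate 1 60.8%, each counted without regard to the other. Replicate 2 thus limits the share in both. The middle of 3 equal sections held 23.99% to 25.3% in the replicate lists, and the middle 50% of the span held 44.6%.

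Shares with a neighbour within 5 kb were 25.1% for the stronger 50%, 23.2% after merging at 1 kb, 30.9% for peaks in both replicates and 15.2% to 22.3% in the replicate lists. At 2, 10 and 20 kb they were 23.3%, 54.8% and 73.96%. The median gap was 49.2 kb, 27.8 kb, 170.4 kb and 43.1 to 182.6 kb in the same order of lists. The median width was 284 bp for the stronger 50%, 470 bp for peaks in both and 390.5 to 404 bp in the replicate lists, and rho of score and width was 0.610, 0.447 and 0.712 to 0.736. Spacing of the leading X peaks was 373 kb for the 40 and 143 kb for the 80 highest, and 843 to 847 kb in the replicate lists. Its coefficient of variation was 0.847, 0.818 and 1.01 for the 10, 40 and 80 highest, 0.470 with peaks within 5 kb merged and 0.455 to 0.487 in the replicate lists. Fewer peaks widen gaps by construction, and the cause of the other shifts was not tested. The ratio of median scores, 4.19 for peaks in both over neither, was 4.78 to 5.35. A score of 40 or 30 in place of 50 gave 19 and 24 X peaks and 9 and 25 autosomal ones. No paired analysis was possible because the input samples that share replicate numbers were not analysed here and no result comes from a test. Depth limits of the lists are unknown.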

Other observations

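A few X peaks of the replicate lists had no counterpart in the whole-series list. Of the 296 in replicate 1, 23 (7.77%) overlapped no whole-series peak, with scores of at most 88.67 and a median of 60.31. Of the 79 in replicate 2, 2 did not, and one of them, 6357662 to 6357893, scored 144.79 and ranked 35 on X in that list. Replicate 1 did not list it.

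The longest X calls of replicate 1 stood side by side at 4035840 to 4044684 and 4044687 to 4053451, 8845 and 8765 bp wide with scores of 254.87 and 87.48. The whole-series list held 1 peak under the first, at 3.00, and 2 under the second, at 2.49 and 3.69. Replicate 2 listed 1 peak there, which scored 60.22. These positions were chosen after their values were seen.

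The left end of X carried a peak, as did that of every autosome in both replicate lists. The autosomal ones scored 219.07 to 999.72 in replicate 1 and 166.39 to 666.43 in replicate 2. The first whole-series peak began at the first base and ended at 332. It scored 9.82, with 489.99 in replicate 1 and 346.47 in replicate 2. The last, 17718585 to 17718737, scored 7.26 and was found in neither replicate. The span of X was taken to end at its last peak, so a peak at the right end follows from that rule.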
